A study of Rattus norvegicus with 12 samples.

Results

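The genes described here are the TGF-beta ligands Tgfb1, Tgfb2 and Tgfb3, the type I receptors Tgfbr1 and Acvrl1, the type II receptor Tgfbr2, the coreceptors Eng and Tgfbr3, and the signal transducer Smad3. They were chosen by symbol, and each was read from the probe set annotated to that symbol alone with the highest mean over the 12 arrays. Of the 9 genes, 8 had such a probe set, among 14503 genes that had 1 in the series, and Tgfbr2 was not analysed here. All 8 lay at or above the lys spike, the bacterial control RNA whose mean signal set the lower limit for testing, and 18690 probe sets were tested in all.

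The RNA came from endothelial cells (ECs) of Wistar rats, sorted by FACS for surface CD31 and against CD45, which marks leukocytes. The 4 groups were ECs of the ductus arteriosus (DA) of neonates taken 30 minutes after cesarean delivery (N), ECs of the aorta of those neonates, ECs of the DA of fetuses on gestational day 21 (F), and ECs of the fetal aorta. Each group had 3 arrays, each made from vessels pooled over litters, and no group carried a transgene or a drug.

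TGF-beta is secreted as a latent dimer that is held in the extracellular matrix by binding proteins and fibrillin, and has to be released before it can bind. The active ligand binds the type II receptor TGFBR2, which recruits and phosphorylates the type I receptor TGFBR1 (ALK5), and this phosphorylates SMAD2 and SMAD3. ECs carry a further type I receptor, ACVRL1 (ALK1), which acts through SMAD1, SMAD5 and SMAD9 and whose strongest ligands are the circulating factors BMP9 and BMP10. Endoglin and betaglycan, the products of Eng and Tgfbr3, present ligands to these receptors. In the DA, TGF-beta is known as a stimulus for the matrix that builds the intimal cushions of the closing vessel.

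The 3 ligands are separate genes on different chromosomes, and their promoters are shown because the results turn on the different behavior of these 3 probe sets. Each is the 250 bases before the annotated start in RefSeq (assembly GRCr8), 5′ to 3′ on the strand of the gene, at chr13:100792686-100792935 for Tgfb2 (minus strand), chr6:111456947-111457196 for Tgfb3 (minus strand) and chr1:90324062-90324311 for Tgfb1 (plus strand). A longer annotated model of the gene reaches into the windows of Tgfb2 and Tgfb3, and none reaches into that of Tgfb1. Capitals mark the E-box CACGTG and the Smad box CAGAC, both searched on both strands.
Tgfb2: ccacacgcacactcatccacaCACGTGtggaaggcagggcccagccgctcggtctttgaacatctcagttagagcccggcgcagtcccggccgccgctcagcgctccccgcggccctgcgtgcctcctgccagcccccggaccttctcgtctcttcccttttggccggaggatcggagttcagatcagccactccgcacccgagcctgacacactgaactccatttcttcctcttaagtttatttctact
Tgfb3: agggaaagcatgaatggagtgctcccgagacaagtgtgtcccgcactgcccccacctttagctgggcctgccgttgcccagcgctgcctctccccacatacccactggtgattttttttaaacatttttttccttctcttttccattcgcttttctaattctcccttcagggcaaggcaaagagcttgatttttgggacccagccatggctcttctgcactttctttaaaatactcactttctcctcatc
Tgfb1: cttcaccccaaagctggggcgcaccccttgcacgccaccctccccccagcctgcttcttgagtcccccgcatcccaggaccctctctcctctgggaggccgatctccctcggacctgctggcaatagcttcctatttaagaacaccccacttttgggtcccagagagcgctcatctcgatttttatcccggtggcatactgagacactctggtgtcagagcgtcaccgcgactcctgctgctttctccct

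The Tgfb2 window held 1 CACGTG, 229 bases before the start, a word found in 5.59% of the 33469 rat promoters of the same length. The Tgfb3 and Tgfb1 windows held none. CAGAC, found in 42.9% of all promoters, was in none of the 3 windows, nor were the TATA word TATAAA (12.9%) and the GC box GGGCGG (30.5%). The CRE half-site TGACG (18.2%) occurred once, in Tgfb1, 30 bases before the start. The GC content was 61.6% in Tgfb2, 48.8% in Tgfb3 and 60% in Tgfb1, and the windows held 19, 5 and 11 CpG dinucleotides in that order of genes. These are matches of letters, and no binding was measured.

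In ECs of the DA, Tgfb2 was higher than in ECs of the aorta at both stages, and Acvrl1 was lower at both stages. These were the 2 of the 8 genes that passed the test in N and in F (limma, Benjamini-Hochberg over all probe sets tested), against 3.14% of all probe sets called in N (1.26% higher and 1.87% lower) and 3.77% in F (1.49% higher and 2.28% lower). When both stages were averaged, Tgfb3 was also called, so that 3 of the 8 genes passed (2 higher, 1 lower), against 8.12% of all probe sets (3.19% higher, 4.93% lower). The remaining 5 genes, Tgfb1, Tgfbr1, Eng, Tgfbr3 and Smad3, did not pass. The members were chosen with earlier results of these data known, so the share of them called is not independent of those results. Values are log2 signals throughout, and since probe sets differ in affinity, the level of one gene is not set against that of another. Because the arrays were bulk samples, fewer cells of a type and less RNA per cell cannot be told apart.

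**Figure D1:**
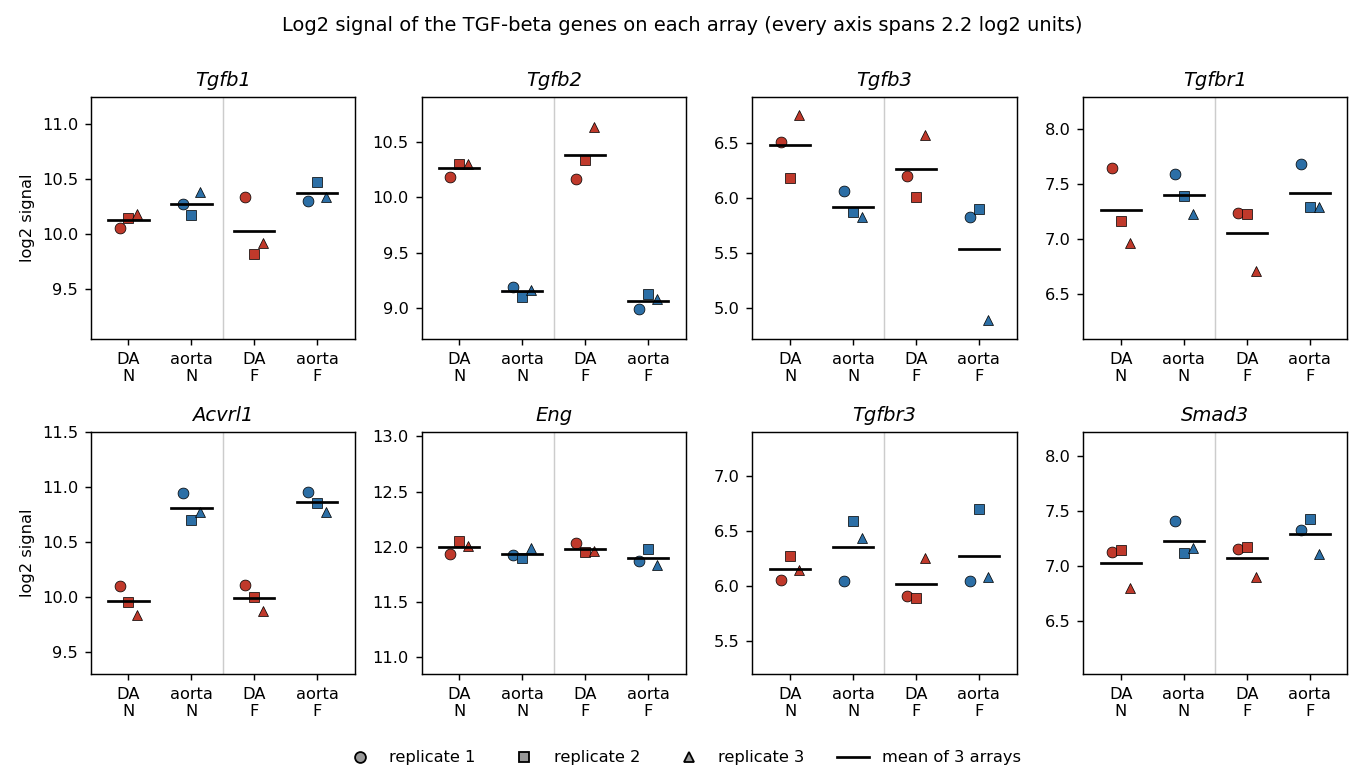
Log2 signal of each of the 8 genes (vertical axes) on the 12 arrays, as 1 point per array with a bar at the mean of the 3 arrays, in ECs of the DA (red) and of the aorta (blue) in N and in F. Tgfb2 lies between 10.17 and 10.64 in the DA and between 8.99 and 9.19 in the aorta, while Acvrl1 lies below 10.12 on every DA array and at 10.70 or above on every aorta array.

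Tgfb2 encodes the ligand that binds TGFBR2 poorly on its own and relies on betaglycan for presentation. In N its log2 signal was 10.19, 10.30 and 10.30 in the DA, against 9.19, 9.10 and 9.16 in the aorta. In F it was 10.17, 10.34 and 10.64 in the DA, against 8.99, 9.12 and 9.08 in the aorta. Every DA array lay above every aorta array, with almost 1 log2 unit between the lowest DA array and the highest aorta array. The fold was 2.17 in N (log2 1.12, SE 0.13, 95% interval 0.84 to 1.39, adjusted p = 0.000268) and 2.50 in F (log2 1.32, SE 0.13, interval 1.04 to 1.60, adjusted p = 6.86e-05). Among arrays of the same replicate number the DA exceeded the aorta by 1.0, 1.21 and 1.15 in N and by 1.18, 1.22 and 1.56 in F. The widest of these differences came from the DA array of replicate 3 in F, which had the highest signal of all 12. In order of the group means, the DA in F (10.38 ± 0.24) and the DA in N (10.26 ± 0.07) were neighbors within their spread, and so were the aorta in N (9.15 ± 0.05) and the aorta in F (9.06 ± 0.07; SD, n = 3 each).

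Tgfb3, a ligand with the same receptors as Tgfb1, is known for its role in palate fusion in mice. Its log2 signal in N was 6.51, 6.18 and 6.75 in the DA, against 6.06, 5.87 and 5.83 in the aorta, and in F it was 6.20, 6.01 and 6.57 in the DA, against 5.83, 5.90 and 4.89 in the aorta. The vessels did not overlap within either stage, but across stages the DA array of replicate 2 in F (6.01) fell below the aorta array of replicate 1 in N (6.06). The aorta array of replicate 3 in F stood about 1 unit below its fellows. Between arrays of the same number the DA exceeded the aorta by 0.45, 0.32 and 0.92 in N and by 0.37, 0.11 and 1.68 in F, so that replicate 3 gave the widest difference at both stages. The log2 difference was 0.56 in N (SE 0.25, interval 0.02 to 1.11, adjusted p = 0.443) and 0.72 in F (SE 0.25, interval 0.18 to 1.27, adjusted p = 0.182), and neither passed the test by limma. Over both stages it was 0.64 (SE 0.18, interval 0.26 to 1.03, adjusted p = 0.0443), a fold of 1.56. This call was close to the threshold, and it was lost when any 1 of 9 arrays was left out (adjusted p = 0.0503 to 0.112), all but the aorta arrays of replicates 1 and 2 in F and the DA array of replicate 2 in N. Without the low aorta array in F the log2 difference was 0.48 (adjusted p = 0.0534 by limma).

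Tgfb1 is the ligand most widely expressed in the body. Its log2 signal in N was 10.05, 10.14 and 10.18 in the DA, against 10.27, 10.17 and 10.38 in the aorta, and in F it was 10.33, 9.82 and 9.92 in the DA, against 10.30, 10.47 and 10.33 in the aorta. The vessels overlapped in both stages, by 0.01 in N and through the DA array of replicate 1 in F. The log2 difference was -0.15 in N (interval -0.46 to 0.15, adjusted p = 0.917) and -0.35 in F (interval -0.65 to -0.05, adjusted p = 0.274). Over both stages it was -0.25 (interval -0.46 to -0.04, adjusted p = 0.177), and without the DA array of replicate 1 in F it was -0.33 and passed (adjusted p = 0.0371 by limma). The 3 ligands thus had estimates of different sign over both stages, 1.22 for Tgfb2 (SE 0.09, adjusted p = 2.94e-06), 0.64 for Tgfb3 and -0.25 for Tgfb1, and Tgfb2 kept its call in every alternative tried for both stages together.

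**Figure D2:**
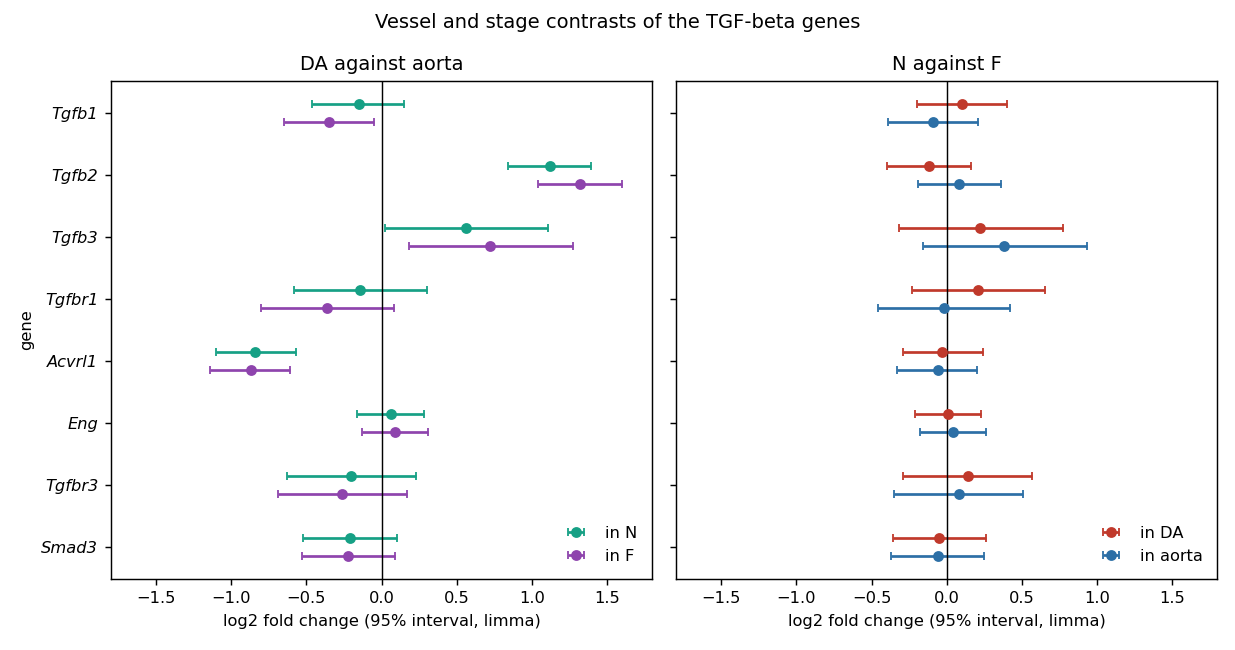
Log2 difference (horizontal axis) with its 95% interval for each of the 8 genes, on the left between the DA and the aorta in N and in F and on the right between N and F in each vessel. On the left the intervals of Tgfb2 (0.84 to 1.39 in N, 1.04 to 1.60 in F) lie far above 0 and those of Acvrl1 (-1.10 to -0.57 in N, -1.14 to -0.61 in F) far below it, and on the right every interval reaches across 0.

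Acvrl1 encodes ALK1, the receptor that is mutated, like endoglin, in hereditary hemorrhagic telangiectasia in humans. In N its log2 signal was 10.10, 9.96 and 9.84 in the DA, against 10.95, 10.70 and 10.77 in the aorta. In F it was 10.11, 10.00 and 9.88 in the DA, against 10.96, 10.86 and 10.77 in the aorta. All 6 DA arrays lay below all 6 aorta arrays. The DA had 0.560 of the aortic signal in N (log2 -0.84, SE 0.12, interval -1.10 to -0.57, adjusted p = 0.00171) and 0.546 in F (log2 -0.87, SE 0.12, interval -1.14 to -0.61, adjusted p = 0.00114). The differences between arrays of the same number were -0.84, -0.74 and -0.93 in N and -0.86, -0.87 and -0.89 in F, so that they varied less than the signals themselves did within a vessel. In every group the array of replicate 1 had the highest Acvrl1 signal. Over both stages the log2 difference was -0.85 (SE 0.09, adjusted p = 3.84e-05).

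Tgfbr1 encodes ALK5, the type I receptor for all 3 ligands. Its log2 signal in N was 7.65, 7.17 and 6.97 in the DA, against 7.59, 7.39 and 7.23 in the aorta, which overlapped. In F it was 7.24, 7.23 and 6.71 in the DA, against 7.68, 7.29 and 7.29 in the aorta, where the highest DA array lay 0.05 below the lowest aorta arrays. The log2 difference was -0.14 in N (adjusted p = 0.993), -0.36 in F (interval -0.80 to 0.08, adjusted p = 0.534) and -0.25 over both stages (interval -0.56 to 0.06, adjusted p = 0.421). The array of replicate 1 was highest in each of the 4 groups for this gene too, and the DA array of replicate 3 was the lowest of its group in N and in F. In the fit used for these intervals, which left the replicate number out, a fall in the DA of up to 0.56 log2 units and a small rise were both within the error. Between arrays of the same number, the DA minus the aorta was 0.06, -0.22 and -0.25 in N. In F it was -0.44, -0.06 and -0.58. A limma fit that added a term for each replicate number gave adjusted p = 0.581 in N, 0.0655 in F and 0.0510 over both stages. Tgfbr1 was not called there either, but its margin was narrow.

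Endoglin, a coreceptor that favors ALK1 signalling, is among the surface proteins most typical of ECs. Its log2 signal in N was 11.93, 12.05 and 12.01 in the DA, against 11.92, 11.90 and 11.99 in the aorta, and in F it was 12.03, 11.95 and 11.96 in the DA, against 11.87, 11.98 and 11.83 in the aorta. The groups overlapped in both stages. The log2 difference was 0.06 in N (interval -0.16 to 0.28), 0.09 in F (interval -0.13 to 0.31) and 0.07 over both stages (interval -0.08 to 0.23, adjusted p = 0.722 by limma). The pooled SD within groups was 0.06, smaller than that of all but 0.599% of the probe sets tested, against a median of 0.21 over all of them and 0.35 for Tgfb3. The precision was therefore better for Eng than for the other 7 genes. On the deposited scale the interval over both stages reached up to 0.23 log2 units. With every array centred on its endothelial markers, described below, the difference was 0.31 (adjusted p = 0.0127 by limma).

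Tgfbr3 encodes betaglycan, which carries TGF-beta 2 to the type II receptor. Its log2 signal in N was 6.05, 6.27 and 6.14 in the DA, against 6.04, 6.59 and 6.43 in the aorta, and in F it was 5.91, 5.89 and 6.25 in the DA, against 6.04, 6.70 and 6.08 in the aorta. The groups overlapped in both stages, and the 2 highest signals were those of the aorta arrays of replicate 2. On these 2 arrays the mean log2 signal of the venous and lymphatic EC markers was also the highest of the 12, at 7.47 in N and 7.67 in F, against 6.62 to 7.24 on the others. The part of such cells in the Tgfbr3 signal was not tested. The log2 difference was -0.20 in N (adjusted p = 0.940), -0.26 in F (adjusted p = 0.713) and -0.23 over both stages (interval -0.53 to 0.07, adjusted p = 0.461). The signal lay below the lys spike of the same array on 1 array, the DA array of replicate 1 in F, where the spike was highest (6.17).

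Smad3, the transcription factor that TGFBR1 phosphorylates together with SMAD2, had a log2 signal in N of 7.13, 7.14 and 6.80 in the DA, against 7.41, 7.12 and 7.16 in the aorta. In F it was 7.15, 7.17 and 6.90 in the DA, against 7.33, 7.43 and 7.11 in the aorta. The DA array was below the aorta array of the same number in 5 of 6 pairs, but the groups overlapped. The log2 difference was -0.21 in N (adjusted p = 0.796), -0.22 in F (adjusted p = 0.636) and -0.21 over both stages (interval -0.43 to 0.01, adjusted p = 0.299 by limma). Adding a term for each replicate number to the limma fit gave adjusted p = 0.0563 over both stages, which was not called either. The array measured transcripts, and the phosphorylated protein, which carries the signal, was not measured.

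**Figure D3:**
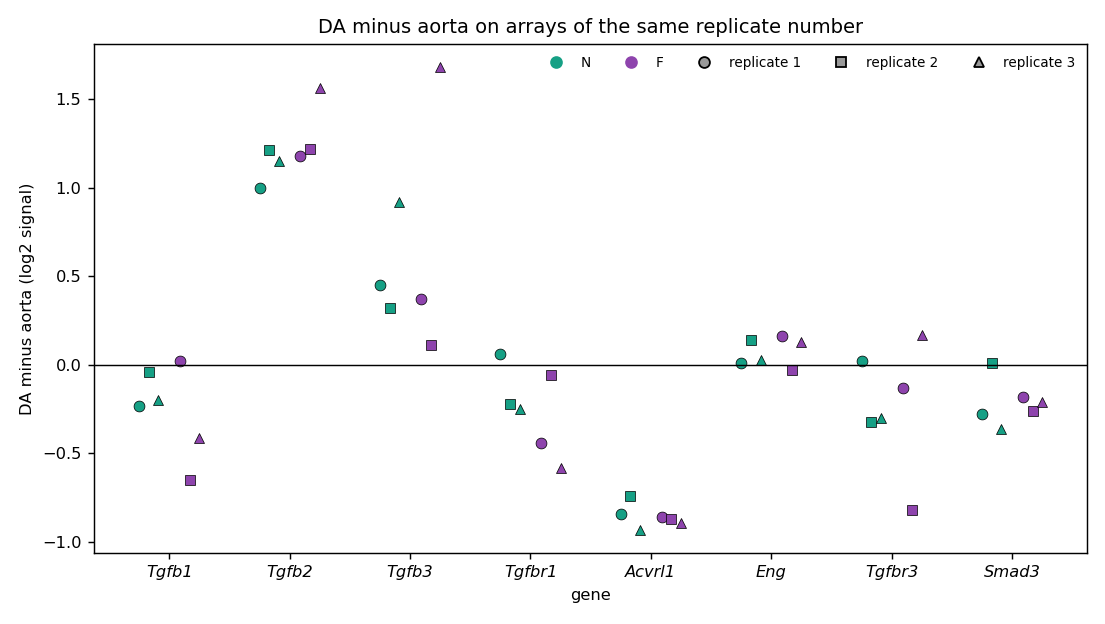
Difference in log2 signal between the DA and the aorta array of the same replicate number (vertical axis), for the 8 genes, with 3 points in N and 3 in F and a line at 0. The 6 points of Tgfb2 lie between 1.0 and 1.56 and those of Acvrl1 between -0.93 and -0.74, whereas those of Tgfb3 reach across 0.11 to 1.68.

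The groups did not overlap for 3 of the 8 genes in N (Tgfb2, Tgfb3 and Acvrl1), where 15.3% of all probe sets tested were separated in the same way, and for 4 in F (Tgfb2, Tgfb3, Tgfbr1 and Acvrl1), against 18.6%. Across all arrays of a vessel only Tgfb2 and Acvrl1 were separated, against 6.98% of all probe sets.

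Birth and the first 30 minutes of breathing left no change that passed the test in any of the 8 genes. Of all probe sets, 0.00535% were called between N and F in the DA, against 0% for the aorta, and no member reached an unadjusted p under 0.05 in either vessel. In the DA the log2 difference of N from F lay between -0.12 for Tgfb2 (interval -0.40 to 0.16) and 0.22 for Tgfb3 (interval -0.32 to 0.77). In the aorta it lay between -0.09 for Tgfb1 and 0.38 for Tgfb3 (interval -0.16 to 0.93). For Acvrl1 it was -0.03 in the DA (interval -0.29 to 0.24) and -0.06 in the aorta (interval -0.33 to 0.20). In no gene were the N and F arrays of a vessel apart from each other, where 5.03% of all probe sets were in the DA and 4.39% in the aorta. The difference between the vessels changed between F and N by -0.20 for Tgfb2 (interval -0.59 to 0.19), by 0.03 for Acvrl1 (interval -0.34 to 0.41) and by -0.16 for Tgfb3 (interval -0.93 to 0.61). This test of the difference itself called none of the 8 genes and 0% of all probe sets.

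The sort was checked against markers of the cell types that DA and aorta tissue holds. All 15 endothelial markers lay above the lys spike, and the sum of their linear signals was lower in the DA, at 24118 to 25452 against 27582 to 28738 in the aorta in N and 23892 to 25095 against 26868 to 28877 in F. Over both stages 4 of the 15 (Plvap, Flt1, Cldn5 and Sox17) were lower in the DA and 11 did not pass. Of the 15 estimates 13 lay below 0, with a median of -0.19. Among all probe sets 3.19% were called higher in the DA over both stages and 4.93% lower, the background for each marker count here. The smooth muscle markers summed to 3733 to 4751 in the DA against 2675 to 2989 in the aorta in N, and to 3653 to 3801 against 2530 to 2935 in F, with 5 of 11 higher in the DA and 2 lower. The mesothelial and epicardial markers, of which 5 of 7 were tested and 2 were higher in the DA, summed to 2018 to 2091 against 981 to 1073 in N and to 2031 to 2261 against 1043 to 1101 in F. Of these 7, Tbx18 made up most of the sum, with a mean log2 signal of 10.86 in the DA against 9.71 in the aorta in N and 10.93 against 9.78 in F. Without it the other 6 summed to 192 to 206 against 188 to 198 in N and to 210 to 216 against 180 to 203 in F, and Wt1, Krt8 and Krt19 did not pass (log2 differences of 0.05, 0.05 and -0.35). The fibroblast markers summed to 9459 to 10905 in the DA against 9107 to 10398 in the aorta in N and to 8283 to 10254 against 8925 to 10228 in F, with 2 of 9 tested higher in the DA, 2 lower and a median log2 difference of 0.25. Mfap5 (1.29) and Fbln1 (-0.50) were called in opposite directions. Of 8 leukocyte markers, Ptprc, Itgam, Lyz2 and Cd3e lay below the lys spike and Cd68, Csf1r, Cd14 and Mpo above it, of which Cd14 was lower in the DA (-0.57). Their sum was 361 to 442 in the DA against 438 to 580 in the aorta in N and 357 to 416 against 466 to 501 in F. None of 4 platelet and 6 venous and lymphatic markers tested was called by limma. The part of these cell types in the differences of Tgfb2, Tgfb3 and Acvrl1, and in those of the matrix genes described next, was not tested. Every array was also centred on its 15 endothelial markers, which raised the median log2 difference between the DA and the aorta over all probe sets by 0.24. This scaling adds the same offset to the difference of every probe set. The log2 difference over both stages was then 1.46 for Tgfb2, 0.88 for Tgfb3 and -0.62 for Acvrl1 (adjusted p = 0.00112 by limma). All 3 were called, as were 4683 of all probe sets. Eng was then called as well, at 0.31 (adjusted p = 0.0127).

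Around the ligands and receptors, 85 further genes of the pathway were tested in 5 lists, counted once each where lists share a gene. The lists were drawn up with earlier results of these data known, so the share called is not independent of those results. Over both stages 13 were higher in the DA, 7 were lower and 65 did not pass, so that 23.5% were called against 8.12% of all probe sets, with a median log2 difference of -0.04 against -0.00. With the replicate number as a block 17 were higher and 19 lower, while the calls among all probe sets numbered 3327 against 1518 without it. Between N and F none was called in either vessel, but with the block Ctgf was called in the DA (-0.86, adjusted p = 0.0239, against 0.443 without the block). That fit called 10 of the 18690 probe sets in the DA. With the block as a random effect, which called 18, Tmem100 was called there too. Tmem100 is known to follow ALK1, and its mean log2 signal in the DA was 6.27 in N against 5.28 in F. Its signal lay below the lys spike on the DA array of replicate 1 in F.

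Among 17 tested genes of the latent complex and of ligand activation, 3 were higher in the DA, 3 were lower and 11 did not pass (median -0.07). The calls made up 35.3% of this list, against 8.12% of all probe sets. Fbn1 encodes fibrillin-1, the microfibril protein on which latent TGF-beta is stored. Its log2 signal was 10.62, 10.33 and 10.15 in the DA against 9.53, 9.36 and 9.12 in the aorta in N, and 10.48, 10.34 and 10.05 against 9.40, 9.21 and 8.95 in F, a difference of 1.07 over both stages (SE 0.12, adjusted p = 0.000115 by limma). Ltbp1, which ties the latent ligand to the matrix, had 9.32, 9.12 and 9.07 in the DA against 8.67, 8.51 and 8.38 in the aorta in N, and 9.21, 9.22 and 9.04 against 8.70, 8.51 and 8.36 in F (0.64, SE 0.09, adjusted p = 0.000619). Both were thus higher on every DA array than on any aorta array, as Tgfb2 was. Emilin1, which in mice limits the processing of the TGF-beta precursor, was also higher (0.46, SE 0.09, adjusted p = 0.00473). Aspn, which encodes the small proteoglycan asporin, an inhibitor of TGF-beta, was lower in the DA (-0.85, SE 0.13, adjusted p = 0.000971). Its signal lay below the lys spike on the DA arrays of replicate 1, where the spike was highest (6.17 in F and 5.78 in N). Ltbp2, a family member not known to bind the latent ligand, and Ltbp4, which binds latent TGF-beta 1, were lower too, by -0.48 (adjusted p = 0.0238) and -0.31 (adjusted p = 0.0272). The call of Ltbp2 was lost without any 1 of 4 arrays (adjusted p = 0.0502 to 0.0695), the aorta array of replicate 2 in F and the DA arrays of replicates 2 and 3 in F and 2 in N. With the arrays centred on the endothelial markers Ltbp2 had -0.24 and Ltbp4 -0.07, and neither was called (adjusted p = 0.124 and 0.519), while Emilin1 had 0.70. The call of Ltbp4 was also lost without any 1 of 8 (adjusted p = 0.0522 to 0.0779) and kept without the aorta arrays of replicates 1 and 3 in F, the aorta array of replicate 2 in N and the DA array of replicate 3 in N.

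**Figure D4:**
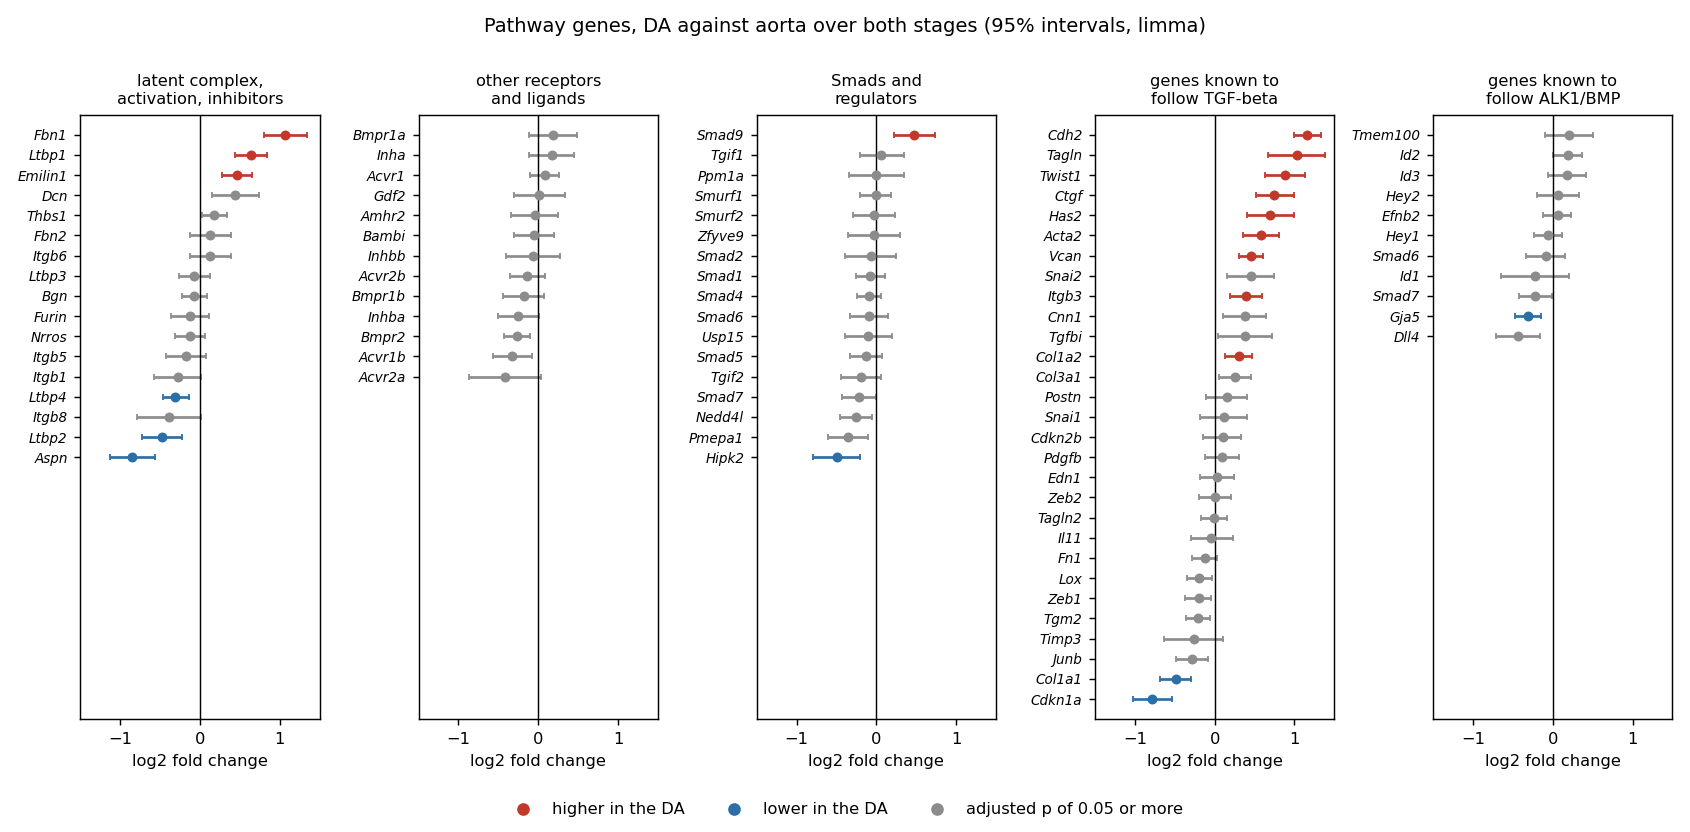
Log2 difference between the DA and the aorta over both stages (horizontal axis) with its 95% interval for every tested gene of the 5 lists, in red where it was called higher in the DA, in blue where it was called lower and in gray otherwise. Fbn1 (1.07) and Cdh2 (1.16) stand at the high end and Aspn (-0.85) at the low end.

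None of 13 other receptors and ligands of the family passed over both stages, where 8.12% of all probe sets did. By limma 2 were under 0.05 before adjustment, and 1 was called by the methods' t-test once adjusted. With the replicate number as a block 3 were called lower, while 3327 of the 18690 probe sets were called. Bmpr2, the type II receptor that pairs with ALK1, had a log2 signal of 10.45, 10.49 and 10.54 in the DA against 10.68, 10.67 and 10.85 in the aorta in N, and of 10.37, 10.43 and 10.54 against 10.69, 10.71 and 10.79 in F. Every DA array lay below every aorta array, with a difference of -0.26 (SE 0.07, adjusted p = 0.0513, and 0.00801 with the block). With endothelial centring it was -0.03 (adjusted p = 0.822). Among 17 Smads and their regulators, 1 was higher, 1 was lower and 15 did not pass (median -0.09). The calls made up 11.8% of this list, near the 8.12% of all probe sets. Smad9, a transducer of ALK1 and BMP receptors, was higher in the DA (0.47, SE 0.12, adjusted p = 0.0263), and Hipk2, a kinase that acts with Smad corepressors, was lower (-0.49, SE 0.14, adjusted p = 0.0449). Both calls depended on single arrays, Smad9 being lost without any 1 of 7 (adjusted p = 0.0570 to 0.0716; all but the aorta arrays of replicate 1 in F and 3 in N, and the DA arrays of replicates 2 in F and 1 and 2 in N) and Hipk2 without any 1 of 9 (adjusted p = 0.0515 to 0.110; all but the aorta arrays of replicate 1 in F and in N and the DA array of replicate 3 in N). With endothelial centring Smad9 had 0.71 and was called, and Hipk2 had -0.26 and was not (adjusted p = 0.163). The other transducers had log2 differences of -0.07 for Smad2 and -0.09 for Smad4, the shared partner of all receptor Smads. Smad7, an inhibitor that TGF-beta itself induces, had -0.22 (SE 0.10, adjusted p = 0.254).

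Of 29 tested genes known to follow TGF-beta in various cells, 9 were higher in the DA, 2 were lower and 18 did not pass (median 0.12). The calls made up 37.9% of this list, against 8.12% of all probe sets. With the block 12 were higher and 6 lower. Cdh2, N-cadherin, had a log2 signal of 8.52, 8.52 and 8.55 in the DA against 7.41, 7.34 and 7.43 in the aorta in N, and of 8.52, 8.52 and 8.63 against 7.55, 7.22 and 7.33 in F (1.16, SE 0.08, adjusted p = 1.35e-06 by limma). Twist1, a transcription factor of mesenchymal transition, was higher by 0.88 (SE 0.12, adjusted p = 0.000336), and Ctgf (Ccn2), a matricellular growth factor, by 0.75 (SE 0.11, adjusted p = 0.000630). For Ctgf the stages had unlike values, 9.02, 9.01 and 8.67 in the DA against 8.73, 8.42 and 8.43 in the aorta in N, and 9.82, 9.63 and 9.82 against 8.80, 8.71 and 8.37 in F. Its difference between the vessels was 0.37 in N, which did not pass (adjusted p = 0.362), and 1.13 in F (adjusted p = 0.000860), and the difference of these did not pass either (-0.76, interval -1.23 to -0.29 without adjustment, adjusted p = 0.99996 by limma). By the methods' t-test once adjusted, the call over both stages was lost (adjusted p = 0.0573). Has2, the synthase of the hyaluronan that fills intimal cushions, was higher by 0.70 (SE 0.13, adjusted p = 0.00464). Its log2 signal was 6.35, 6.15 and 5.61 in the DA against 5.52, 5.29 and 5.16 in the aorta in N. In F it was 6.14, 6.21 and 5.84 against 5.49, 5.41 and 5.22. It lay below the lys spike only on the DA array of replicate 1 in F, where the spike was highest (6.17). Tagln, an actin-binding protein of smooth muscle, was higher by 1.03 (SE 0.17, adjusted p = 0.00160). It is also on the list of smooth muscle markers, as are Acta2 and Cnn1, and the sums of those markers are given above. Cdkn1a, the cell cycle inhibitor p21, which TGF-beta induces in many cells, was lower in the DA, at 7.99, 8.06 and 7.88 against 8.84, 8.59 and 8.75 in the aorta in N and at 8.0, 7.34 and 7.48 against 8.37, 8.45 and 8.41 in F (-0.78, SE 0.11, adjusted p = 0.000635). The other calls, named after their values were seen, were Acta2, Vcan, Itgb3 and Col1a2, higher by 0.58, 0.46, 0.39 and 0.30, and Col1a1, which differed by -0.48. Col1a1 and Col1a2 are also on the list of fibroblast markers, as are Col3a1 and Postn, and their calls were counted there too. The call of Col1a2 was lost without any 1 of 10 arrays, all but the DA array of replicate 3 in F and the aorta array of replicate 3 in N. The call of Itgb3 was lost without any 1 of 7, the DA arrays of replicates 1 and 2 and the aorta arrays of replicates 2 and 3 in N, and the DA arrays of replicates 2 and 3 and the aorta array of replicate 3 in F (highest adjusted p = 0.0758 and 0.0708). With endothelial centring Col1a1 had -0.24 and was not called (adjusted p = 0.0935). Of 11 tested genes known to follow ALK1 and the BMP Smads, 1 passed, or 9.09%, near the 8.12% of all probe sets. It was Gja5, the gap junction protein connexin 40. Its log2 signal was 11.44, 11.31 and 11.33 in the DA against 11.69, 11.78 and 11.62 in the aorta in N, and 11.65, 11.56 and 11.49 against 11.85, 11.83 and 11.87 in F (-0.31, SE 0.07, adjusted p = 0.0184). This call was lost without the aorta array or the DA array of replicate 2 in N (adjusted p = 0.0561 to 0.0596), and with endothelial centring the difference was -0.07 (adjusted p = 0.504). With the block 3 of the 11 genes were lower, while 3327 of the 18690 probe sets were called.

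The probe sets with the profile most like that of a called gene were taken by Pearson's r over the 12 arrays, as a description over arrays that share vessel and stage. For Tgfb2 they were Vegfa (r = 0.988), Ifitm1 (0.985) and Capn6 (0.985), which had log2 differences of 1.26, 2.14 and 2.81 in the DA relative to the aorta over both stages. For Acvrl1 they were Serpinf1 (0.991, difference -1.41), Col5a2 (0.985, difference -0.29) and Kctd10 (0.983, difference -0.38). For Tgfb3 the nearest profiles were less close, those of Gnptg (0.932, difference 0.35), Snx33 (0.912, difference 0.22) and Plekha5 (0.909, difference 0.20).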

How the data were processed

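The platform was the Rat Gene 1.0 ST array, with 12 arrays in 4 groups of 3. Deposited were log2 signals, which the authors summarised and normalized, by a method not given in the sources used here. Array medians lay between 5.63 and 5.76, and nothing more was normalized. The number of arrays limits the precision. A replicate is a pool of vessels, so p-values measure the spread between pools of a group. The paper counts its litters per developmental group and names no separate litters for the DA and the aorta. It does not state whether the DA and aorta pools of the same replicate number came from the same litters. The fit used for the calls did not pair them.

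Of 26468 probe sets, 15307 had 1 gene symbol in the platform table, 323 several and 10838 none. Probe sets whose mean lay below that of the lys spike (4.44) were left out, 7777 in all, and 18690 were tested in R 4.3.3 with limma 3.58.1 and a mean for each group (8 residual degrees of freedom). Calls had an adjusted p under 0.05 by Benjamini-Hochberg over all of them. The fit was tested on simulated data with known changes. The members and lists were chosen with earlier results of these data known. All members were named, and of each list up to 6 called genes with the largest differences over both stages, with Smad2, Smad4, Smad7, Ctgf, Ltbp1 and Bmpr2 whatever their value. Tmem100 was named for its call between N and F.

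Arrays of the same replicate number deviated together (correlations of 0.102 to 0.820 over 18 pairs, against -0.738 to 0.368 over 36 pairs of different numbers), and the number was tried as a block. Other alternatives were the filter, quantile normalization, median centring, a trended and robust fit, fits on only the groups compared, the methods' t-test and leaving out each array. Promoters were matched by symbol in a RefSeq table, 8 of the 9 genes.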

Additional observations from a re-analysis of the deposited data

How the results depend on the processing

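Over both stages the log2 difference between the DA and the aorta ranged over the alternatives from 1.15 to 1.46 for Tgfb2 (adjusted p = 3.91e-08 to 2.7e-05) and from -0.89 to -0.62 for Acvrl1 (adjusted p = 2.57e-07 to 0.00112), and both stayed called. By the methods' t-test with Benjamini-Hochberg adjustment, 1 member was called in N and 0 in F (2 in each by limma; 2 at an unadjusted t-test in F). Among all 18690 probe sets that test called 44 in N and 67 in F, and 2226 in F without adjustment. Over both stages it called 6 members without adjustment, where 3874 of the 18690 probe sets were called. Tgfb3 over both stages also lost its call with no filter (adjusted p = 0.0584), with quantile normalization (0.0522), with median centring (0.0543) and by the t-test (0.0911). The cause was not tested. The replicate block changed the call of no member. No direction of a called value was reversed. Leaving out 1 array gave 2 to 2 called members in N and in F, 2 to 3 over both stages and 0 to 0 for the stages and for the difference between stages. Of the lists over both stages, it gave 4 to 6 calls for the latent complex, 0 to 0 for other receptors, 0 to 2 for Smads, 9 to 11 for genes known to follow TGF-beta and 0 to 2 for those known to follow ALK1.

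Over both stages the fit described above called 1518 of 18690 probe sets. The calls numbered 3327 with the block, 3168 with the block as a random effect, 3874 by the unadjusted t-test and 4683 with endothelial centring. They numbered 1668 with quantile normalization, 1411 with median centring, 1596 with the trended fit and 1789 by the adjusted t-test. Without a filter 1346 of 26467 were called, and with the stricter filter 1573 of 17677. The latent complex list had 10 calls with the block as a random effect. Other receptors had 1 with the stricter filter, with median centring, with the trended and robust fit and by the adjusted t-test, 2 with endothelial centring (an alternative chosen after seeing the data), and 3 with either block and by the unadjusted t-test. The Smads had 1 with no filter, with quantile normalization and with endothelial centring, 4 with the random block and 6 by the unadjusted t-test. Genes known to follow TGF-beta had 18 with either block, 20 by the unadjusted t-test and 17 with endothelial centring. Those known to follow ALK1 had 2 with quantile normalization, the random block or the trended fit, 3 with the block or endothelial centring and 4 by the unadjusted t-test. A t-test or a fit on only the groups compared gave no value for the difference between stages, the latter none over both stages, and no member had another probe set to try.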
